A study of Homo sapiens with 2 samples.

Results

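The major histocompatibility complex (MHC) genes examined here lie mainly in the class III and class II parts of the complex on the short arm of chromosome 6. They were selected on position and on the measured values themselves: every gene whose locus lay fully within chr6:31350000-33100000 of GRCh37/hg19 and whose FPKM (sequenced fragments scaled to transcript length and library depth) was above 0 in at least one sample. Of 55797 genes in the deposited tables, 145 lay in this stretch of 1.75 Mb and 104 met the rule. The other 41 were at 0 in both samples, among them LST1, NCR3, MCCD1, BTNL2 and HLA-DOB, and 11 of them carried the software's low-data status. The values come from the human embryonic stem cell line H1, a widely used established line, differentiated to Stage 6 of a pancreatic protocol, at which the mixed culture contains insulin-expressing cells. One sample, called live, was neither fixed nor sorted before its RNA was isolated with the RNeasy kit. The other, called processed, was fixed in paraformaldehyde, permeabilized with saponin, stained, passed through a cell sorter with every cell kept, and its RNA was recovered by protease digestion, the procedure named MARIS. Both came from the same differentiated culture, and the labels give no genetic change for either.

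Each condition has 1 library, so the differences below stand without a replicate check, and no test between the conditions was possible. The lower and upper bounds quoted beside FPKM values are those of the authors' software, describe 1 library each, and have no stated level. All 104 genes were flagged OK in both samples except EHMT2, whose estimate failed in live cells and whose bounds there run from 0 to 182 FPKM. The pancreatic label held on all 9 endocrine markers examined, with insulin (INS) at 98.3 and 121 FPKM and chromogranin A (CHGA) at 1794 and 1741 FPKM in live and processed cells. The processed value of CHGA is loosely bounded, from 0 to 4712 FPKM. FPKM summed to 510713 in live and 499398 in processed cells, of which the region held 0.317% and 0.327%. In low values of genes with 1 transcript, FPKM fell on steps that give the worth of a single fragment, 0.01002 in live and 0.0107 in processed cells (FPKM multiplied by the transcript length in kb, less 170 nt). The processed library was thus shallower by a factor of 1.07, and fragment numbers below were derived from these steps and the annotated transcript lengths. In bulk samples of this kind, fewer cells of a type and less RNA per cell cannot be told apart.

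Class II molecules are heterodimers of an alpha and a beta chain that carry peptides from endocytosed proteins to the surface of antigen-presenting cells, where T cells read them. Their loading depends on the invariant chain CD74 and on the accessory molecules HLA-DM and HLA-DO. In most other cell types the classical class II genes are silent until the transactivator CIITA is induced, often by interferon. The class III part is one of the most gene-dense stretches of the genome and holds no antigen-presenting molecule. It carries complement components, the tumour necrosis factor cluster, HSP70 genes and many genes that all cells use for RNA metabolism, protein quality control and signalling.

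Strongly expressed genes lay mostly in the class III part, whereas the class II chain genes were low or near 0. The larger of the 2 samples' FPKM was at least 100 for 3 genes, from 10 to 100 for 26, from 1 to 10 for 31, from 0.1 to 1 for 22, and below 0.1 for the last 22. For 8 of these last genes it was below 0.001, a level under that of 1 fragment. Such values are numerically above 0 and met the rule, but carry no evidence of a transcript.

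**Figure D1:**
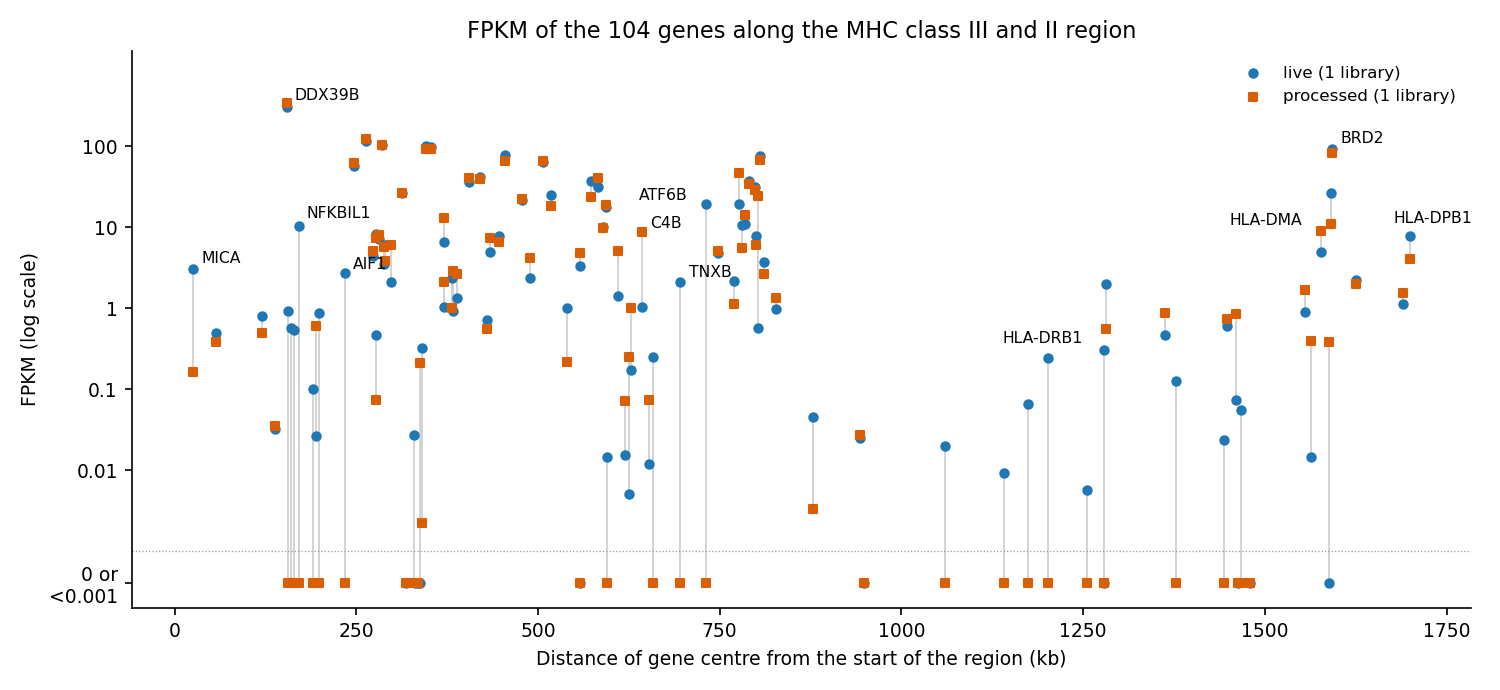
FPKM (log scale) of the 104 genes against the distance of each gene's centre from the start of the region in kb, for the 1 live library (circles) and the 1 processed library (squares), joined by a line per gene, with values of 0 or below 0.001 placed on the bottom row. Most genes above 10 FPKM have their symbols close together, whereas NFKBIL1, AIF1, TNXB and ATF6B drop from 10.3, 2.71, 2.13 and 19.0 FPKM to the bottom row.

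Most of the strongly expressed genes had similar values in both samples. Of the 29 genes at 10 FPKM or more in one sample, 5 were past 2-fold, namely ATF6B, NFKBIL1, PPT2, XXbac-BPG300A18.13 and XXbac-BPG181M17.6, whose values are given below. The share past 2-fold among all 8515 genes at this level was not computed, so this count is a description. The highest FPKM was that of DDX39B, an RNA helicase of splicing and mRNA export, at 307 FPKM in live cells (bounds 301 to 312) and 341 FPKM in processed cells (bounds 334 to 347). BAG6, a chaperone of membrane proteins before their insertion, followed with 115 and 122 FPKM, and CSNK2B, the regulatory subunit of casein kinase 2, with 102 and 104 FPKM. DDAH2 had 99.9 and 91.9 FPKM and the chloride channel protein CLIC1 97.3 and 92.6 FPKM. BRD2, a bromodomain protein that reads acetylated histones and the strongest gene within the class II part, had 91.1 and 82.3 FPKM in live and processed cells.

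The 16 genes with at least 30 FPKM in live cells had log2 ratios, log2((processed FPKM + 1) / (live FPKM + 1)), from -0.66 to 0.35 with a median of -0.06, and 7 of the 16 were positive. RDBP, which encodes subunit E of the negative elongation factor that pauses RNA polymerase II, was the lowest of them, at 37.5 and 23.5 FPKM in live and processed cells. Its overlapping neighbour SKIV2L, a helicase of the cytoplasmic RNA exosome pathway, was the highest, at 31.4 and 40.3 FPKM. Among the other genes of RNA metabolism, chromatin and translation were the valyl-tRNA synthetase VARS at 36.2 and 40.9 FPKM, the U6 snRNA-binding protein LSM2 at 40.9 and 39.3 FPKM, and the homeodomain protein PBX2 at 74.99 and 68.2 FPKM. C6orf48, the host of small nucleolar RNAs, lay within the same range, at 78.4 and 65.9 FPKM. Of the 12 genes of this list, all reached 1 FPKM, 0 were more than 2-fold higher, and the 1 that was more than 2-fold lower was ATF6B. The list of 21 genes of signalling, lysosome and metabolism held 20 genes at 1 FPKM or more, of which 1, PPT2, was past 2-fold upward and 0 downward. Their median log2 ratio was 0.01, beside -0.09 over all genes at this level. More than 2-fold higher and lower were 6.57% and 6.19% of all genes at this level, so these counts set neither list apart.

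Exact zeros were more numerous in processed than in live cells. Of the 103 region genes above 0 in live cells, 23 were exactly 0 in processed cells (22.3%), against 18.1% of all genes above 0 in live cells. This share is near the background. In the other direction, 1 of 81 genes above 0 in processed cells was exactly 0 in live cells, beside 3.89% of all genes. That gene was BRD2-IT1, a short non-coding transcript inside BRD2, at 0.379 FPKM in processed cells (bounds 0.129 to 0.629). Well-expressed genes were among those at 0. Of the 55 region genes with at least 1 FPKM in live cells, 4 were exactly 0 in processed cells, compared with 1.36% of all genes at that level. All 4 are protein-coding, and they make up 7.55% of the 53 protein-coding region genes at 1 FPKM or more, beside 0.298% of protein-coding genes at that level in the whole table. At 10 FPKM or more in live cells, 2 of 25 protein-coding region genes were at 0. Across the whole table, 2 of 7240 such genes (0.0276%) were, and these are the same 2 genes, ATF6B and NFKBIL1. Because the region was chosen with these zeros known, the shares are descriptions and not tests.

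Followed along the chromosome, the 23 zeros fell into 8 runs of neighbouring members, of which 7 held 2 or more genes and the longest held 5. The first run, chr6:31510081-31542101, consisted of DDX39B-AS1, ATP6V1G2, NFKBIL1 and LTA. The next, chr6:31548302-31584798, was LTB and AIF1, and another, of 3 genes, at chr6:31674640-31685695 was LY6G6F, its readthrough XXbac-BPG32J3.19 and LY6G6D. CYP21A2, TNXB and ATF6B formed the run at chr6:32006042-32096030, 89.99 kb long. HLA-DRA, HLA-DRB5, HLA-DRB6, HLA-DRB1 and HLA-DQA1 formed the longest, chr6:32407619-32614839, spanning 207 kb. Further runs were HLA-DQB1-AS1 with XXbac-BPG254F23.6, HLA-DQB2 alone, and XXbac-BPG246D15.8 with PSMB9 and TAP1. Members of a run share sequence or neighbourhood and are not independent of each other. Of the 23 genes, 5 had live FPKM below 0.001, which carries no evidence of a transcript. The highest live value was 0.0268 FPKM in the LY6G6F run and 0.245 FPKM in the longest run. How often such runs occur over all genes was not computed, so the runs are descriptions.

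The zeros differed in how much signal was lost. For 12 of the 23 genes the live FPKM was below 0.1, and for 9 of the 22 with a known transcript length no more than 3 fragments would be expected in the processed library at the live level. At that depth a 0 cannot be distinguished from the live value. For 13 genes more than 3 fragments were expected even from the shortest annotated transcript. Transcript lengths come from a later gene annotation release than the one the paper names, so these numbers are approximate. For ATF6B the expected number was 692 fragments with the shortest and 4345 with the longest transcript, and for NFKBIL1 it was 369 and 1232. AIF1 was expected at 89.2 to 255 fragments and TNXB at 39.99 to 2705.

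ATF6B and its neighbours formed the only group of overlapping genes in the region in which every member was at 0 in processed cells. ATF6B encodes a membrane-bound transcription factor of the endoplasmic reticulum stress response (chromosome 6, 32065953 to 32096030, minus strand). It had 19.0 FPKM in live cells (bounds 18.14 to 19.9) and was listed at 0 in processed cells with bounds of 0 to 0 and status OK. TNXB, the extracellular matrix protein tenascin-X, had 2.13 FPKM (bounds 1.76 to 2.49) in live cells and CYP21A2, the steroid hydroxylase of cortisol synthesis, 0.247 FPKM (bounds 0.129 to 0.365), and both were listed at 0 in processed cells. Directly beyond them FKBPL, an immunophilin-like protein, was present at 4.77 and 5.01 FPKM with overlapping bounds.

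The genes before this run belong to a duplicated module in which C4A, CYP21A1P and TNXA are followed by C4B, CYP21A2 and TNXB. C4A and C4B encode complement component C4, which is cleaved on activation of the classical and lectin pathways. In live cells C4A had 1.43 FPKM (bounds 1.06 to 1.79) and C4B 1.02 FPKM (bounds 0.753 to 1.28). Processed cells gave 5.02 FPKM (bounds 4.12 to 5.92) for C4A and 8.73 FPKM (bounds 7.53 to 9.94) for C4B. The bounds of the 2 samples were separate for both genes, and the ratio of processed to live FPKM was 3.52 for C4A and 8.58 for C4B. C4B had the higher value in processed cells, whereas in live cells the bounds of the 2 genes overlap.

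The remaining members of the module followed the same split. TNXA, a truncated pseudogene of TNXB, was at 0.174 and 1.01 FPKM in live and processed cells. CYP21A1P, the pseudogene of CYP21A2, went from 0.00511 FPKM, below the level of 1 fragment, to 0.251 FPKM. The antisense transcripts C4A-AS1 and C4B-AS1 were at 0.0152 and 0.0118 FPKM in live cells and at 0.0722 and 0.0726 FPKM in processed cells. Hence all 6 genes of the module from C4A to C4B-AS1 had separate bounds with the higher value in processed cells, whereas the 3 genes that follow were at 0 there. Summed over copies, C4A and C4B together went from 2.44 to 13.7 FPKM, CYP21A1P and CYP21A2 were at 0.252 and 0.251 FPKM, and TNXA and TNXB together went from 2.30 to 1.01 FPKM. FPKM is scaled to transcript length, so here and below a sum over genes of unlike length is not a sum of fragments. The transcripts compared were 2038 nt for TNXA and 13097 nt for TNXB, and 1481 nt for CYP21A1P and 2006 nt for CYP21A2.

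**Figure D2:**
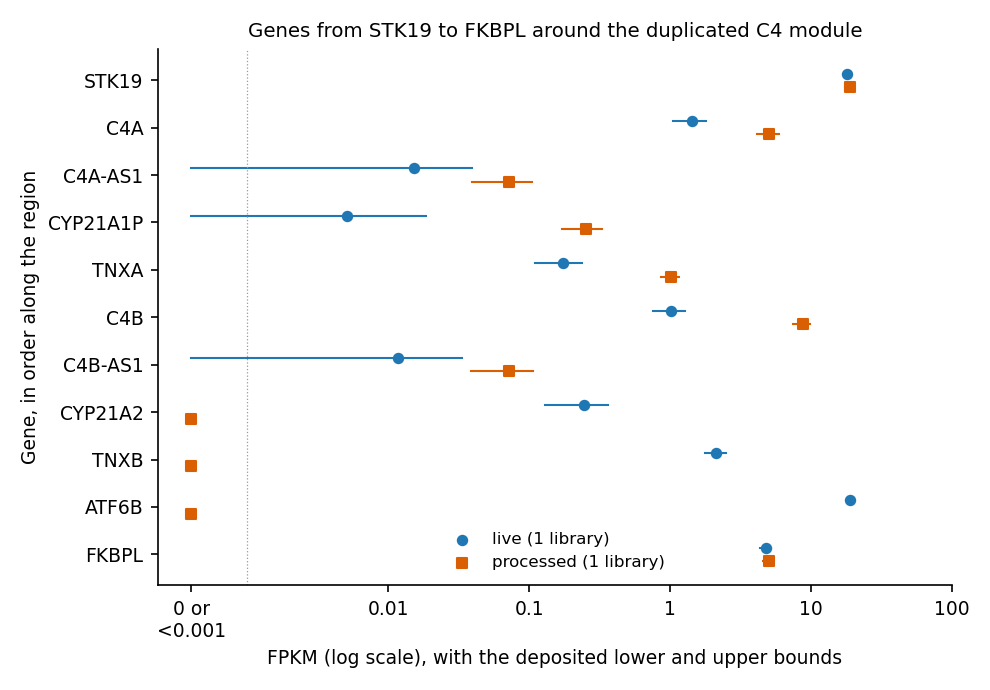
FPKM (log scale) with the deposited lower and upper bounds for genes in their order along the chromosome from STK19 to FKBPL, for 1 live library (circles) and 1 processed library (squares). XXbac-BPG116M5.15, between STK19 and C4A in this order, is not shown. It had 0.0145 FPKM in live cells and a value below 0.001 in processed cells. From C4A to C4B-AS1 every processed value lies to the right of the live value, CYP21A2, TNXB and ATF6B lie at 0 in processed cells, and STK19 (17.9 and 18.9 FPKM) and FKBPL at either end have overlapping bounds.

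How far reads can tell these copies apart was measured from the reference transcripts, using all stretches of 80 nt, the length of 1 read. Of those in C4A, 90.4% occur unchanged in C4B, and of those in TNXA, 81.4% occur in TNXB. TNXB is much longer, and 12.3% of its stretches occur in TNXA. CYP21A1P shared 49.4% with CYP21A2 and 88.9% with annotated genes overlapping it, and C4A-AS1 was 100% shared with C4B-AS1. The 2 C4 transcripts of 5427 nt differ at 13 positions, all in the coding sequence, an identity of 99.8%. Values of the single copies are therefore uncertain. ATF6B shared 0% of its stretches with any annotated gene elsewhere in the genome and 8.24% with genes overlapping it. This comparison covered the annotated transcripts of the reference used here. Whether the authors aligned to alternative MHC haplotype sequences as well is not given in the sources used here, and such sequences were not compared. Without the reads, the zeros of ATF6B, NFKBIL1, AIF1 and TNXB cannot be told from failed estimates.

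The stretch below, from exon 26 of 41, is shown because it holds the densest cluster of differences between the C4 genes, 5 of the 13. It is chr6:31963799-31963888 for C4A and chr6:31996537-31996626 for C4B on GRCh37, plus strand, and capitals mark the bases that differ (C62T, G65C, T73A, G76C and C78T from C4A to C4B, counted from 1 at the 5′ end of the stretch).
C4A: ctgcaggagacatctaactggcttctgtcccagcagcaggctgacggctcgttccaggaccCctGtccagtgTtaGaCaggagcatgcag
C4B: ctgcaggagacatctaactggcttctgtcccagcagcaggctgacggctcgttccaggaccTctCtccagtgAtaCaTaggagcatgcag
A read pair that misses these and the 8 other differing positions fits both genes.

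C2 and CFB, which lie before the module and encode the complement proteases of the classical and alternative pathways, had 0.994 and 3.34 FPKM in live cells. In processed cells C2 was at 0.217 and CFB at 4.76 FPKM, with separate bounds in both. The locus of C2 overlaps that of CFB and of the zinc finger gene ZBTB12, which went from 24.9 to 18.0 FPKM. Summed over the 4 overlapping genes, FPKM came to 29.3 and 23.0. The list of complement and neighbouring genes had 8 of 12 genes at 1 FPKM or more, of which C4A and C4B were more than 2-fold higher and TNXB was more than 2-fold lower. Over all genes at this level the shares were 6.57% higher and 6.19% lower, and counts this small do not set the list apart. C4A and C4B share most of their sequence, so they are not independent counts.

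Complement genes elsewhere in the genome are listed for comparison. Of 23 genes, 11 reached 1 FPKM, with a median log2 ratio of -0.21, 2 past 2-fold upward and 1 past 2-fold downward, counts too small to be set apart from the 6.57% and 6.19% of all genes. The properdin gene CFP had 0.362 and 2.44 FPKM, and CFI, encoding the protease that degrades C4b and C3b, 0.000163 and 2.27 FPKM. The live value of CFI is below the level of 1 fragment. C6, a component of the membrane attack complex, went from 3.46 to 1.15 FPKM. The C1 inhibitor gene SERPING1, the most abundant of the list, was at 101 and 99.8 FPKM. The others that reached 1 FPKM had separate bounds. C1R was higher in processed cells, at 4.91 and 6.74 FPKM. Lower were C1S (3.44 and 1.44), C5 (16.4 and 13.7), C8A (1.02 and 0.743), CD46 (55.5 and 50.2), CD55 (3.56 and 1.52) and CD59 (74.6 and 39.9).

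The tumour necrosis factor cluster held several of the zeros. Of its 7 listed genes, LST1 and NCR3 were 0 in both samples, 4 were 0 in processed cells alone, and TNF was the exception. Over all genes above 0 in live cells, 18.1% were at 0 in processed cells. The list is small and was chosen with earlier results of these data known, so its count is a description. NFKBIL1, an ankyrin-repeat protein related to inhibitors of NF-kappaB (chromosome 6, 31514647 to 31526606, plus strand), had 10.3 FPKM in live cells (bounds 9.74 to 10.9) and was listed at 0 in processed cells. AIF1, a calcium-binding protein of macrophages, had 2.71 FPKM (bounds 2.002 to 3.41) in live cells and was likewise listed at 0 in processed cells. LTB and LTA, the subunits of the lymphotoxin heterotrimer, were at 0.865 FPKM and 0.0993 FPKM in live cells and 0 in processed cells.

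TNF itself, which lies between LTA and LTB, went the other way, from 0.0265 FPKM (bounds 0 to 0.0541), at most 4 fragments, to 0.601 FPKM (bounds 0.468 to 0.735). NFKBIL1 overlaps ATP6V1G2, a subunit of the vacuolar proton pump, which had 0.537 FPKM in live cells and 0 in processed cells. The readthrough transcript ATP6V1G2-DDX39B, at 0.918 FPKM in live cells, was not listed at 0 but at a value below 0.001 with an upper bound of 0.0115 FPKM. DDX39B, in the same group of overlapping genes, held over 300 FPKM in both samples, so this group as a whole summed to 319 and 341 FPKM in live and processed cells. NFKBIL1, AIF1 and LTB shared 0% of their 80 nt stretches with genes elsewhere. NFKBIL1 shared 9.04% with overlapping genes, and AIF1 and LTB shared 0%.

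Since AIF1 and the lymphotoxins are genes of leukocytes, markers of such cells are given beside them. Of 12 macrophage and monocyte markers, 7 were exactly 0 in processed cells alone and 1 in live cells alone. Over all genes the shares were 18.1% and 3.89%, counted only among genes above 0 in the other sample, whereas the 12 are all listed markers. Only 2 of the 12 reached 1 FPKM, so these shares, taken over genes of all levels, are not a matched background. The highest was LYZ at 3.218 and 4.58 FPKM, and the sum over the list was 7.01 and 6.21 FPKM in live and processed cells. CD163, a scavenger receptor of macrophages, was at 1.60 FPKM in live cells and 0 in processed cells, and CD14 at 0.250 FPKM and 0, whereas CSF1R was at 0.498 and 0.923 FPKM and CD68 at 0.830 and 0.703 FPKM. The processed value of CSF1R had bounds of 0 to 1.85 FPKM. SPI1, which encodes the myeloid factor PU.1, was the 1 at 0 in live cells alone. Its 0.000918 FPKM in processed cells is below the level of 1 fragment. Of 5 B cell markers, 3 were at 0 in live and 2 in processed cells, with sums of 0.763 and 1.25 FPKM, and of 6 T and NK cell markers 5 were at 0 in each, with sums of 0.305 and 0.0107 FPKM. Endothelial markers, 5 genes in the tables, summed to 3.21 and 2.41 FPKM. The part of such cells in the zeros of the region was not tested.

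Some class II genes were at 0 in processed cells, and others were measured in both samples at up to a few FPKM. Of 13 genes for class II chains and for HLA-DM and HLA-DO, 12 were above 0 in at least one sample and 6 reached 1 FPKM, of which 0 were past 2-fold in either direction with a pseudocount of 1. HLA-DQB1 was past it with a pseudocount of 0.1, with a log2 ratio of -1.66. With a pseudocount of 1, 6.57% of all genes at 1 FPKM or more were higher and 6.19% lower past 2-fold, so 0 of 6 is near the background. Together the 13 genes summed to 19.8 and 19.5 FPKM in live and processed cells. HLA-DRA, the only alpha chain of the HLA-DR molecules, had 0.0200 FPKM in live cells (bounds 0 to 0.0536), which corresponds to 1.995 fragments on its shortest transcript, and 0 in processed cells. HLA-DRB5 had 0.00917 FPKM in live cells, worth 0.988 of a fragment, and 0 in processed cells. HLA-DRB1 was the highest of the HLA-DR genes, at 0.245 FPKM in live cells (bounds 0.149 to 0.342), and was also 0 in processed cells, where 13.7 to 47.4 fragments were expected. HLA-DQA1 had 0.00567 FPKM in live cells and HLA-DQB2 0.125 FPKM, and both were 0 in processed cells.

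The others were measured in both samples. HLA-DPB1 had 7.77 FPKM in live cells (bounds 6.69 to 8.86) and 4.00 FPKM in processed cells (bounds 3.32 to 4.67), whereas its partner HLA-DPA1 had 1.12 and 1.51 FPKM with overlapping bounds. HLA-DQB1 was at 1.97 FPKM in live (bounds 1.49 to 2.45) and 0.553 FPKM in processed cells (bounds 0.350 to 0.755). HLA-DQA2 was at 0.469 and 0.876 FPKM. The genes of the peptide exchange factor HLA-DM were both higher in processed cells with separate bounds, HLA-DMA at 4.97 and 8.90 FPKM and HLA-DMB at 0.884 and 1.69 FPKM, log2 ratios of 0.73 and 0.52. HLA-DOA, a chain of the molecule that inhibits HLA-DM, was at 2.25 and 1.995 FPKM with overlapping bounds. HLA-DPB1 was thus above HLA-DPA1 and HLA-DMA above HLA-DMB in both samples. HLA-DRA, HLA-DRB1 and HLA-DRB5 were all at 0 in processed cells.

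**Figure D3:**
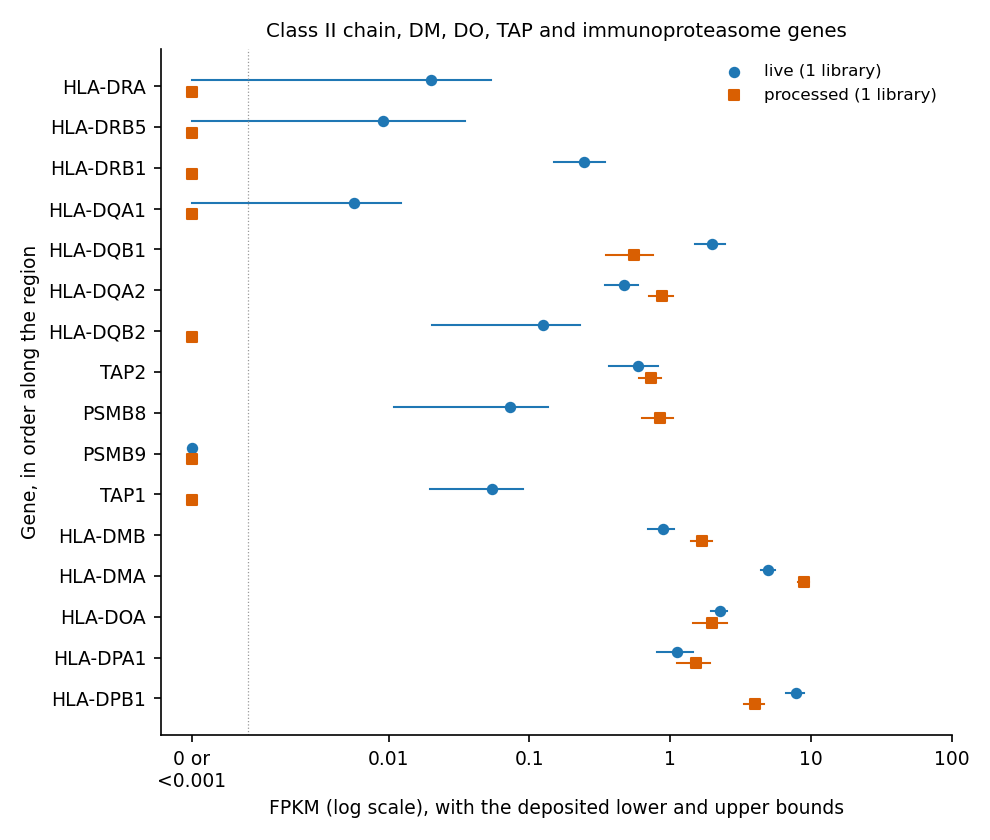
FPKM (log scale) with the deposited lower and upper bounds for the class II chain, DM, DO, TAP and immunoproteasome genes in their order along the chromosome, for 1 live library (circles) and 1 processed library (squares). HLA-DRA, HLA-DRB5, HLA-DRB1, HLA-DQA1, HLA-DQB2, PSMB9 and TAP1 lie at 0 in processed cells, and HLA-DMA and HLA-DPB1, which differ in opposite directions, are the highest.

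Regulators and partners of class II outside the region were mostly expressed, except CIITA and CTSS, which stayed below 1 FPKM in both samples, and IFI30, which was at 0 in processed cells. CIITA was below 0.001 FPKM in both samples, with upper bounds of 0.00218 in live and 0.00236 in processed cells. RFX5, RFXAP and RFXANK, the subunits of the factor that binds the X box of class II promoters, had 20.9, 6.08 and 48.3 FPKM in live and 17.3, 4.49 and 47.7 FPKM in processed cells. NFYA, NFYB and NFYC, the subunits of the factor that binds the Y box, ranged from 19.7 to 30.2 FPKM in live and from 13.96 to 36.8 FPKM in processed cells. CD74 was at 20.2 and 21.0 FPKM with overlapping bounds. Among the 13 genes of this list 11 reached 1 FPKM, 0 were more than 2-fold higher and 1 was more than 2-fold lower. That gene was IFI30, a lysosomal thiol reductase of antigen-presenting cells, at 1.23 FPKM in live and 0 in processed cells. The shares over all genes at this level were 6.57% higher and 6.19% lower. CTSS, a cathepsin that trims the invariant chain, went from 0.169 FPKM to 0.

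Promoter sequences are given for 3 class II genes with different behaviour, HLA-DRB1 at 0 in processed cells, HLA-DQB1 with a lower value there and HLA-DMA with a higher one. They run from 250 bases before to 50 bases after the start in RefSeq on GRCh38.p14, minus strand, at chr6:32589799-32590098, chr6:32666608-32666907 and chr6:32953048-32953347. Capitals mark the motif CTGATTGG, the core of the Y box, which begins 49, 91 and 82 bases before the start.
HLA-DRB1: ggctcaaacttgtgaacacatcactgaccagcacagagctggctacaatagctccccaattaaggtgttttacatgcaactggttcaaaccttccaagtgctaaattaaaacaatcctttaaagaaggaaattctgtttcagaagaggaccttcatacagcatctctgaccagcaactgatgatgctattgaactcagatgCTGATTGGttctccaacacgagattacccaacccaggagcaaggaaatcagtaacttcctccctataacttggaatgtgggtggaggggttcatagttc
HLA-DQB1: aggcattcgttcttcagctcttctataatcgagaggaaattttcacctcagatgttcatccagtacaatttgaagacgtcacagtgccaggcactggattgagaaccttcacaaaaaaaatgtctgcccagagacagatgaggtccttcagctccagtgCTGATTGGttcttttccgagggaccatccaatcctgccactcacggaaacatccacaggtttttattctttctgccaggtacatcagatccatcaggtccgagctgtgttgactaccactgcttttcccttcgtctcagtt
HLA-DMA: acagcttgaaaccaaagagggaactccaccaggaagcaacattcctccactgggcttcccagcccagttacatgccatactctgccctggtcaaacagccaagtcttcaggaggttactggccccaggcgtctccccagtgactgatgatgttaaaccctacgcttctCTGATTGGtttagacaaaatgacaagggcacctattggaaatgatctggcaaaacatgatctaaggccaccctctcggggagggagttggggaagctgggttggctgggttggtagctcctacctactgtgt
On either strand, this motif was found in 6 of the 11 class II genes of the region that have an entry in the RefSeq table, namely HLA-DMA, HLA-DQA2, HLA-DQB1, HLA-DQB2, HLA-DRB1 and HLA-DRB5, and in 3.97% of all 35116 promoters. Its last 5 letters alone, ATTGG, were found in 10 of the 11 and in 34.6% of all promoters. The 6 genes with the longer motif include 3 that were at 0 in processed cells and 2 that were higher there, HLA-DMA and HLA-DQA2.

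TAP1, TAP2, PSMB8 and PSMB9, which supply peptides to class I molecules but are encoded among the class II genes, were all below 1 FPKM. The transporter subunit TAP2 had 0.594 and 0.732 FPKM with overlapping bounds, whereas TAP1 had 0.0546 FPKM in live cells and 0 in processed cells. The immunoproteasome subunit PSMB8 was at 0.0734 FPKM in live cells (bounds 0.0108 to 0.136) and 0.843 FPKM in processed cells (bounds 0.634 to 1.05). PSMB9 was below 0.001 FPKM in live and 0 in processed cells.

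MICA and MICB, class I-like genes for stress-induced ligands of the NKG2D receptor of natural killer cells, open the region. MICA had 3.05 FPKM in live cells (bounds 2.71 to 3.39) and 0.162 FPKM in processed cells (bounds 0.115 to 0.209), so that the live value was 18.8 times the processed one. On its shortest transcript the live value corresponds to 105 fragments. MICB was at 0.798 and 0.496 FPKM and the non-coding RNA HCP5, whose locus overlaps that of MICA, at 0.492 and 0.386 FPKM. MICA shared 0% of its 80 nt stretches with genes elsewhere in the annotation used.

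The HSP70 chaperone genes of the region, of which HSPA1A and HSPA1B are induced by heat and other protein-damaging stress, differed little as a group. HSPA1A was at 4.93 FPKM in live (bounds 4.54 to 5.31) and 7.33 FPKM in processed cells (bounds 6.86 to 7.79), and HSPA1B at 7.82 FPKM (bounds 7.45 to 8.18) and 6.51 FPKM (bounds 6.16 to 6.85). The 2 genes thus had separate bounds in opposite directions, while their sum was 12.7 and 13.8 FPKM in live and processed cells, a ratio of 1.09. HSPA1L, which is expressed mainly in testis, had 0.707 and 0.560 FPKM with overlapping bounds. Of the 80 nt stretches of HSPA1A, 73.5% occur unchanged in HSPA1B, and of those of HSPA1B, 70.0% occur in HSPA1A. HSPA1B also shared 34.5% with annotated genes overlapping it. In the coding sequence of 1923 nt HSPA1A and HSPA1B differ at 4 positions. The stretch with 3 of these 4 is shown for that reason, from chr6:31785337-31785456 for HSPA1A and chr6:31797531-31797650 for HSPA1B, GRCh37, plus strand, with the differing bases in capitals (G57C, C102T and A117G from HSPA1A to HSPA1B, counted from its 5′ end).
HSPA1A: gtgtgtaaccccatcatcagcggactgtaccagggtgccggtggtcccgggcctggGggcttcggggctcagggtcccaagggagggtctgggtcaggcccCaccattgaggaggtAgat
HSPA1B: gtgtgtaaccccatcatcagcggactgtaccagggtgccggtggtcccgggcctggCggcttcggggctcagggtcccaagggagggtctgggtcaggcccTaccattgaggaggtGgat
As with C4, the sum is the firmer value, since reads from most of the coding sequence fit both genes.

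Genes of the LY6 family, small cell-surface proteins often anchored by a lipid, were near 0 apart from LY6G5B and LY6G5C. LY6G5C went from 2.09 FPKM (bounds 1.46 to 2.73) to 6.05 FPKM (bounds 5.05 to 7.05). LY6G5B went from 5.95 to 3.85 FPKM, and XXbac-BPG32J3.22, a gene model that overlaps it and CSNK2B, from 3.48 to 5.605 FPKM, so that the sum of the 2 was 9.43 and 9.45 FPKM in live and processed cells. LY6G6F had 0.0268 FPKM in live cells and 0 in processed cells, whereas LY6G6C was below 0.001 FPKM in live and at 0.208 FPKM in processed cells. C6orf25, which encodes an inhibitory receptor of platelets, overlaps LY6G6C and had 0.321 and 0.00220 FPKM.

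With a pseudocount of 1, which understates differences of low values, 60 region genes with at least 1 FPKM in either sample were compared on the log2 scale. Processed cells had more than 2-fold the live value for 6 of them (10%, beside 6.57% of all genes) and were lower past 2-fold for another 6 (10%, beside 6.19%). Counts this small are close to the background and do not set the region apart. The median log2 ratio was 0.02 (interquartile range -0.33 to 0.43) against -0.09 over all genes. Processed over live FPKM had a median of 0.932 over all genes at 1 FPKM or more in both samples, or -0.10 on the log2 scale, and relative to that shift the median of the region was 0.12. The bounds were separate for 47 of the 60 genes, or 78.3%, beside 71.8% of all genes. Those more than 2-fold lower were the 4 genes at 0 (ATF6B, NFKBIL1, AIF1 and TNXB), MICA and XXbac-BPG181M17.6. Higher were XXbac-BPG300A18.13, C4B, C4A, PPT2, LY6G5C and SAPCD1-AS1. Just past the 2-fold line was SAPCD1-AS1 with a log2 ratio of 1.01, and just short of it were HLA-DQB1 with -0.94 and the mismatch repair family gene MSH5, which acts in meiotic recombination, with 0.89 (6.46 and 12.9 FPKM).

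**Figure D4:**
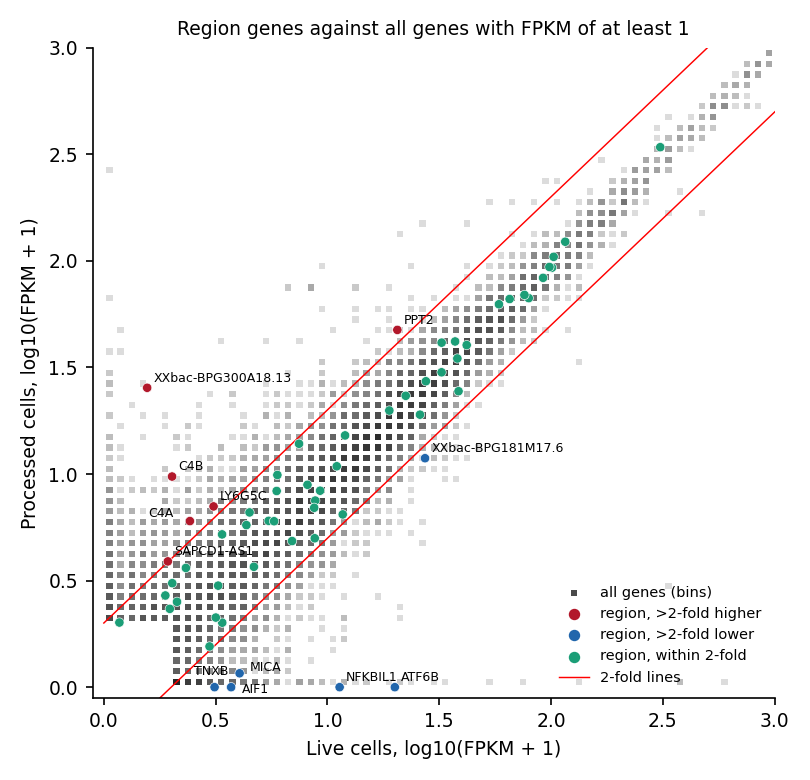
Processed against live FPKM, both as log10(FPKM + 1), for the 60 region genes with at least 1 FPKM in one sample (coloured points) over bins of all 17326 genes at this level (grey, darker with more genes), with the 2-fold lines and axes ending at 3. Of the 12 region genes outside the lines, 6 lie above and 6 below, and 4 of the latter lie on the lower edge at 0 in processed cells.

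Of these 12 genes, 10 overlap another gene of the tables, as do 40 of the 48 within the lines. XXbac-BPG300A18.13 (chromosome 6, 32152516 to 32153659), which lies inside PBX2, had the largest log2 ratio of the 60, 4.02, and went from 0.562 FPKM (bounds 0.348 to 0.776) to 24.4 FPKM (bounds 23.1 to 25.7). It has no entry in the annotation used here, so its type is not given. PBX2 and this gene together summed to 75.5 and 92.6 FPKM. XXbac-BPG181M17.6, a non-coding transcript on the opposite strand of BRD2, went from 26.3 FPKM (bounds 24.7 to 27.9) to 10.9 FPKM (bounds 9.79 to 11.9), and 84.9% of its 80 nt stretches, read on either strand, occur in overlapping genes. Whether strand was used in counting is not stated, so such pairs cannot be told apart.

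PPT2, a lysosomal thioesterase, went from 19.5 FPKM (bounds 18.2 to 20.9) to 46.4 FPKM (bounds 41.4 to 51.5), while the readthrough XXbac-BPG300A18.12, which joins PPT2 to EGFL8, went from 10.7 to 5.46 FPKM. EGFL8 itself was at 11.0 and 14.2 FPKM. PPT2 and the readthrough together summed to 30.2 and 51.9 FPKM, and 52.4% of the stretches of PPT2 occur in overlapping genes. Their transcripts, of 1906 and 4181 nt, differ in length, so this sum is not a sum of fragments. At the MSH5 locus, MSH5 and its readthrough MSH5-SAPCD1 summed to 7.48 and 14.9 FPKM, SAPCD1 went from 2.38 to 1.01 FPKM and SAPCD1-AS1 from 0.933 to 2.89 FPKM. With a pseudocount of 1, 0 of 24 groups of overlapping region genes held genes past 2-fold in both directions. With a pseudocount of 0.1, SAPCD1 and SAPCD1-AS1 passed it in opposite directions, with log2 ratios of -1.17 and 1.53. This holds for genes at 1 FPKM or more. Below that level others did so too, such as the overlapping C6orf25 and LY6G6C, with -2.04 and 1.62.

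Further class III genes had lower levels. The choline transporter family gene SLC44A4 was at 2.38 and 4.21 FPKM and VWA7 at 1.33 and 2.63 FPKM, both with separate bounds. AGER, the receptor for advanced glycation end products, had 7.72 and 5.94 FPKM, PRRT1 2.17 and 1.12 FPKM, and NOTCH4, a Notch receptor of endothelium, 0.972 and 1.33 FPKM. The sialidase gene NEU1 was at 21.4 and 22.3 FPKM, APOM, an apolipoprotein of high-density lipoprotein, at 4.46 and 5.03 FPKM, and ABHD16A at 26.6 and 26.3 FPKM, all with overlapping bounds.

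The stretches of 1.75 Mb on either side of the region had zeros at lower levels alone. Of all genes above 0 in live cells, 23 of 68 (33.8%) were at 0 in processed cells on the side with the class I genes and 3 of 43 (6.98%) on the other side, so the share of the region, 22.3%, lay between them. At 1 FPKM or more in live cells, 0 of 33 genes were at 0 in processed cells on the class I side and 0 of 34 on the other, against 4 of 55 in the region. More than 2-fold higher or lower were 0 and 1 of 35 genes on the class I side and 0 and 0 of 34 genes on the other. Across the rest of chromosome 6, 11 of 703 genes (1.56%) at 1 FPKM or more in live cells were at 0 in processed cells.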

How the data were processed

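RNA-seq of 1 live and 1 processed Stage 6 sample was used. Per the labels, the authors sequenced paired reads of 80 nt and processed them with STAR 2.2.0c and Cufflinks 2.0.2 on GRCh37/hg19. The deposited values are FPKM per gene with a lower and an upper bound, and read counts were not used here. Exact zeros can be failed estimates.

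Genes were joined by identifier with Python 3.11.15 and pandas 2.3.3, and positions are given from 1. Log2 ratios used a pseudocount of 1, and genes past 2-fold were counted at 1 FPKM or more in at least one sample. Gene types, transcripts and the stretches of 80 nt came from GENCODE release 44 on GRCh37, which held 94.5% of all identifiers and 101 of the 104 genes. The paper names an earlier GENCODE release. Copies were aligned with Biopython 1.88. The worth of 1 fragment was read from genes with 1 transcript over 300 nt, after subtracting 170 nt from its length. Calculations were tested on simulated data. No test between samples was possible.

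The members and gene lists were chosen with earlier results of these data known. Named genes are those of the lists, those at 1 FPKM or more in one sample and past 2-fold or 0 in the other, genes overlapping or next to those at 0, and the 5 highest. Antisense, readthrough and clone-named genes outside this rule were named after their values were seen. Alternatives covered pseudocount, filter, scaling, status, region limits and gene type.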

Additional observations from a re-analysis of the deposited data

How the results depend on the processing

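The counts of region genes past 2-fold stayed between 4 and 7 for higher and between 5 and 8 for lower values in processed cells, under a pseudocount of 0.1, no filter on low values, both scalings, status OK alone, loci overlapping the region and protein-coding genes alone. The median log2 ratio ranged from -0.01 to 0.12. Dividing processed FPKM by the median ratio, 0.932, shifts every log2 ratio without pseudocount by 0.10 and changed the sign of 4 of the 60 genes (ABHD16A, CLIC1, LSM2 and DOM3Z), none past 2-fold. The 23 genes at 0 in processed cells became 21 when values below 0.01 FPKM counted as 0, and 4 when at least 1 FPKM was required in live cells. The 1 gene at 0 in live cells became 3 with values below 0.01 FPKM counted as 0, 0 with at least 1 FPKM required in processed cells, and 0 among protein-coding genes. No paired analysis was possible because each condition has 1 sample. Depth limits 9 of the 23 zeros, those with 3 or fewer expected fragments, all below 0.1 FPKM in live cells.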
